A study of Mus musculus with 6 samples.

Results

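Aminoacyl-tRNA synthetases are the enzymes that join each amino acid to its transfer RNA. They were followed here in 4T1, an epithelial line from a mouse mammary carcinoma, with and without corticosterone, the main glucocorticoid of rodents. Genes were taken by name from the deposited table: symbols of the form of Aars or Aars2, together with Eprs, Farsa, Farsb, Tarsl2 and the 3 scaffold proteins Aimp1, Aimp2 and Eef1e1, kept where the table lists a protein-coding transcript. This gave 41 of 28154 genes, of which 21 encode cytosolic enzymes, 17 encode mitochondrial enzymes (symbols ending in ars2) and 3 encode scaffold proteins. All 41 passed the filter on low counts, as did 17283 genes in all. The 6 RNA sequencing libraries are 3 of control cells and 3 of corticosterone-treated cells of the same line. The sources used here do not give the dose, the length of treatment, what the control cells received or whether replicates came from separate cultures. The p-values therefore measure the spread between these samples, which may be technical.

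Each synthetase charges the transfer RNAs of 1 amino acid, apart from Eprs, a fused enzyme that charges both glutamate and proline. Cytosolic protein synthesis and the separate translation system inside mitochondria mostly use enzymes from different nuclear genes, although Gars (glycine) and Kars (lysine) supply both compartments from a single gene. In the cytosol, several synthetases are held together with Aimp1, Aimp2 and Eef1e1 in the multisynthetase complex, while others act outside it. Many cytosolic synthetase genes are known targets of ATF4, the transcription factor whose translation increases when cells lack amino acids or suffer other stresses that phosphorylate eIF2.

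Library totals were between 62175495 and 66249288 counts, with 22244 to 22683 genes detected. All 7 epithelial markers were expressed (summed level 1579.8 to 1862 FPKM per library, fragments scaled to transcript length and library size). Summed levels were 12.3 to 13.9 FPKM for 6 fibroblast markers and 21.4 to 25.7 FPKM for 5 leukocyte markers. For 4 endothelial markers they were 0.0983 to 0.286 FPKM. Of all these markers, epithelial ones included, 16 passed the filter. In edgeR 0 of the 16 changed, beside 487 of all 17283 genes tested. At an unadjusted p under 0.05 in edgeR there were 2 epithelial and 1 endothelial marker, beside 17% of all genes. In DESeq2 1 epithelial and 1 endothelial marker fell, while 1256 genes changed in all. In edgeR without corticosterone replicate 2, 2 epithelial markers and 1 endothelial marker fell, while 3670 of 17862 genes changed in all. The part of these markers in the results was not tested. In bulk RNA, a change in the share of cells that express a gene and a change in its RNA per cell cannot be told apart. Among the treated libraries corticosterone replicate 2 was the odd one: the number of genes that changed was 487 with all libraries and 3670 without it.

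Of the 21 cytosolic synthetase genes, 12 rose with corticosterone, 0 fell and 9 did not pass (edgeR quasi-likelihood test, p adjusted by the Benjamini-Hochberg method over all genes and under 0.05). In the same comparison 1.35% of all genes tested rose and 1.46% fell. The rises were small and alike in size, from 1.22-fold (Rars and Eprs) to 1.39-fold (Nars, asparagine), with adjusted p between 0.00285 and 0.0496. Averaged over the 21 genes, log2 levels relative to the control mean were -0.038, 0.0056 and 0.033 in control replicates 1, 2 and 3 and 0.26, 0.30 and 0.25 in the treated ones. Among the 12 genes that rose, the highest treated library was replicate 1 in 4, replicate 2 in 7 and replicate 3 in 1. The median log2 fold change was 0.30 over the 21 genes and 9.62e-05 over all genes tested. In 15 of the 21 the lowest treated library lay above the highest control library, which was so for 10.6% of all genes. Of the 17 mitochondrial synthetase genes, Nars2 alone rose, 0 fell and 16 did not pass, with a median of -0.014. None of the 3 scaffold genes passed. At an unadjusted p under 0.05 there were 16 cytosolic, 2 mitochondrial and 0 scaffold genes, all of them higher with corticosterone, as against 17% of all genes in either direction. DESeq2 and limma also found 0 scaffold genes that changed and 0 synthetases that fell. Whether the cytosolic and mitochondrial sets differ was not tested.

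**Figure D1:**
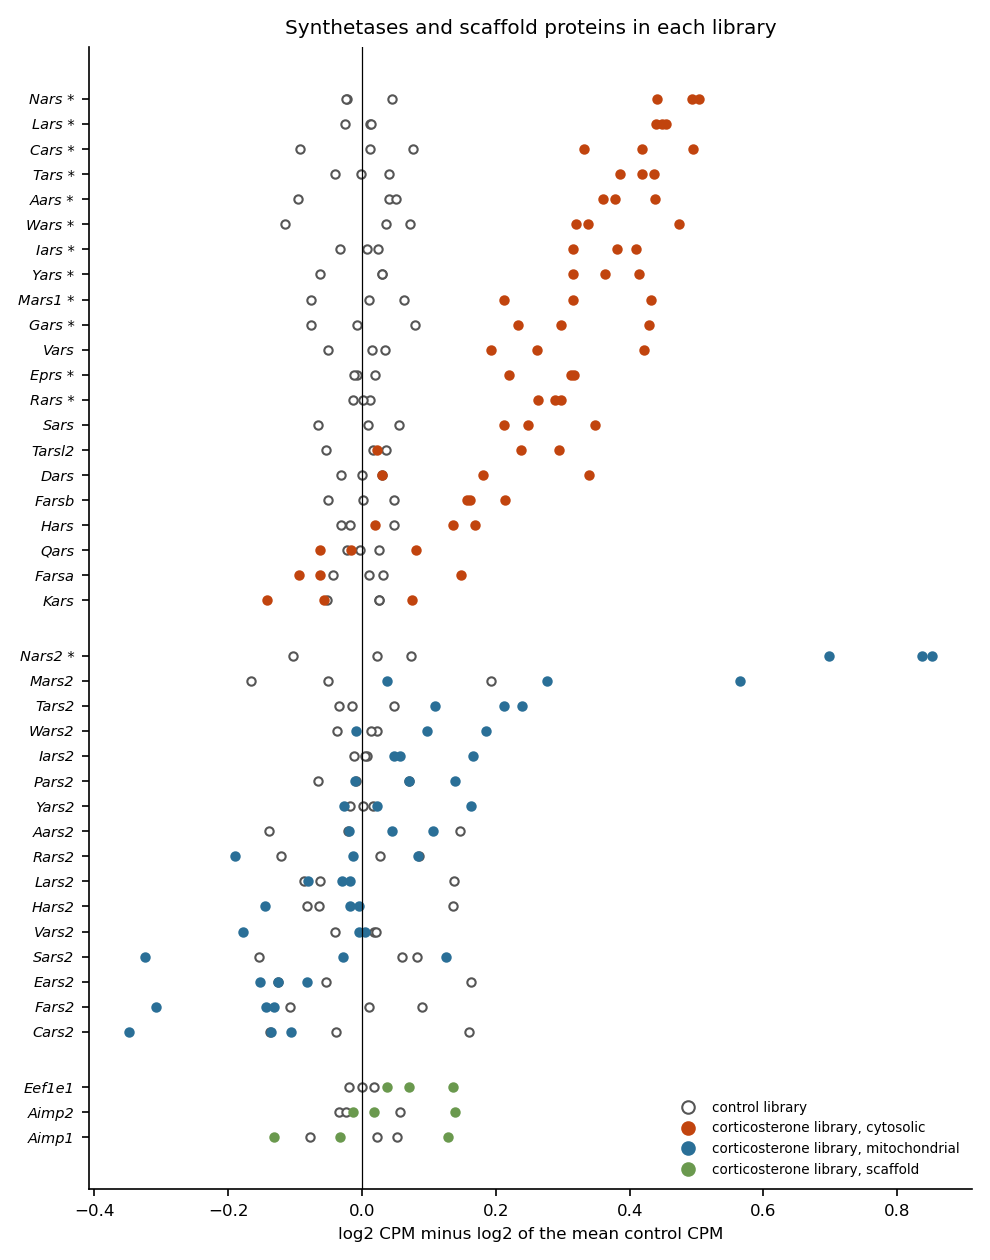
Level of 40 of the genes in each of the 6 libraries, as log2 CPM (counts scaled to library size) minus the log2 of the mean control CPM. Open points are control libraries, filled points are corticosterone libraries coloured by group, and an asterisk marks the 13 genes that rose. The 12 marked cytosolic genes and Nars2 have all 3 treated libraries to the right of all 3 controls, and most mitochondrial genes scatter about 0.

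The counts above depend on single libraries far more than the fold changes do. Cytosolic genes that rose numbered 3, 2 and 3 without control replicates 1, 2 and 3, and 3, 18 and 9 without corticosterone replicates 1, 2 and 3. Over the same fits, 0.492%, 0.336%, 0.565%, 0.431%, 10.5% and 0.729% of all genes rose. The median log2 fold change of the 21 genes stayed between 0.27 and 0.35. Nars, Lars and Nars2 passed in all 6 of these fits, and Tars in all but that without control replicate 2, where its adjusted p was 0.0636 in edgeR. With all libraries the number that rose was 15 in DESeq2 (3.55% of all genes), 13 with DESeq2's size factors (1.34%), 14 at a mean of at least 1 FPKM (2.05%), and 14 in limma on log2(FPKM + 1) (1.82%) or log2(FPKM + 0.1) (1.81%). It was 7 without the filter on low counts (0.398%), 4 at an adjusted p under 0.01 (0.486%) and 14 under 0.1 (2.46%).

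Nars (ENSMUSG00000024587), the cytosolic asparaginyl-tRNA synthetase, had the largest rise among the cytosolic enzymes. Its levels were 294, 293 and 308 CPM in control replicates 1, 2 and 3 and 423, 405 and 419.7 CPM in the treated ones. All treated libraries lay well above all controls, and the log2 fold change was 0.48 (SE 0.049; adjusted p = 0.00285 in edgeR). Lars, the leucyl enzyme, which also acts as a leucine sensor for the growth kinase mTORC1, had little spread within either group. It had 131, 135 and 135 CPM in controls and 181, 182 and 183 CPM with corticosterone, a log2 fold change of 0.45 (SE 0.046). Tars, the threonyl enzyme, went from 283, 290.3 and 299 CPM to 388, 393 and 379.7 CPM, a log2 fold change of 0.41 (SE 0.049). The related gene Tarsl2 encodes a second threonyl enzyme of the cytosol. It was far lower than Tars per length, at 2.71 ± 0.0862 against 43.5 ± 1.04 FPKM in controls (SD, n = 3), and its groups overlapped (log2 fold change 0.19, not passed).

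Aars, the alanyl enzyme, had 409, 449.8 and 453 CPM in controls and 568, 592 and 561 CPM in treated libraries (log2 fold change 0.39). Cars, the cysteinyl enzyme, had 174, 187 and 196 CPM and then 248, 261.5 and 233.5 CPM (0.42). In both genes control replicate 1 was the lowest library and corticosterone replicate 2 the highest. Wars, the tryptophanyl enzyme and a gene known to be induced by interferon, had 103, 115 and 118 CPM in controls and 141, 155 and 139.7 CPM with corticosterone (0.38). Yars, the tyrosyl enzyme, had 94.4, 88.6 and 94.5 CPM and then 115, 123.2 and 119 CPM (0.36). Gars, the glycyl enzyme, had 309, 324 and 344 CPM and then 400.2, 438 and 383 CPM (0.32). In these 3 genes, too, corticosterone replicate 2 was the highest library. Gars was among the most abundant synthetases per length, at 92.2 ± 4.62 FPKM in controls and 116 ± 6.35 FPKM with corticosterone (SD, n = 3). All 5 of these genes act outside the multisynthetase complex.

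Vars, the valyl enzyme, was the most abundant synthetase per length, at 100.5 ± 2.74 FPKM in controls and 124 ± 8.25 FPKM with corticosterone (SD, n = 3). With 616, 644 and 653 CPM in controls and 765, 854 and 729 CPM in treated libraries its groups did not overlap, but it missed the threshold (log2 fold change 0.30, adjusted p = 0.0591 in edgeR). Sars, the seryl enzyme, was as close to it, with 363, 382 and 394 CPM and then 450.5, 483 and 439.5 CPM (0.27, adjusted p = 0.0515 in edgeR). For both genes corticosterone replicate 2 was the highest library. Both passed with DESeq2 and with limma on FPKM, and of the fits that leave out 1 library both passed only without corticosterone replicate 2.

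Among the 8 enzymes of the multisynthetase complex 5 rose, as did 7 of the 13 cytosolic enzymes outside it. The medians were 0.28 and 0.32 on the log2 scale. Of all genes tested 1.35% rose, and whether these sets differ was not tested. Within the complex, Iars (isoleucine) had 265, 272 and 275 CPM in controls and 359.6, 337 and 353 CPM with corticosterone, a log2 fold change of 0.37 (SE 0.050). Lars rose likewise, as given above, and Mars1, the methionyl enzyme that also charges the initiator transfer RNA, went from 150.3, 159.6 and 166 CPM to 197, 214 and 184 CPM (0.32). Eprs went from 343, 342 and 349 CPM to 429, 401 and 428 CPM (0.28). Rars, the arginyl enzyme, went from 207, 210.7 and 209 CPM to 257, 255 and 251 CPM (0.28), with little spread inside either group.

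The other 3 enzymes of the complex, and the scaffold proteins that hold it together, did not pass. Qars, the glutaminyl enzyme, had 307, 317 and 311 CPM in controls and 308, 329 and 298 CPM in treated libraries, a log2 fold change of 0.0018 (SE 0.054). Kars, the lysyl enzyme, had 407, 429.5 and 429.7 CPM and then 406, 444 and 382 CPM (-0.039, SE 0.065). In both genes the groups overlapped and corticosterone replicate 2 was the highest library. Dars, the aspartyl enzyme, had its lowest treated library, replicate 2, at the level of the highest control (118 CPM each), and the other treated libraries at 131 and 146 CPM (log2 fold change 0.19). The scaffold Aimp1, whose secreted fragment is known as the cytokine EMAPII, ranged from 109 to 119 CPM in controls and from 105 to 125 CPM with corticosterone. Aimp2, which links synthetases of the complex to each other, had a log2 fold change of 0.05 and Eef1e1, also called AIMP3, one of 0.082.

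Phenylalanine is charged in the cytosol by a tetramer of 2 kinds of subunit, and the subunits' genes gave different values. Farsa, the catalytic subunit, had 139, 144 and 146 CPM in controls and 134, 158 and 137 CPM with corticosterone, a log2 fold change of 6.73e-04 (SE 0.072). Farsb had 83.3, 86.4 and 89.2 CPM and then 96.5, 100.1 and 96.2 CPM, groups that did not overlap, and their log2 fold change was 0.18 (SE 0.053, not passed). Whether the subunits differ from each other was not tested. Hars, the histidyl enzyme, had overlapping groups and a log2 fold change of 0.11 (SE 0.060).

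**Figure D2:**
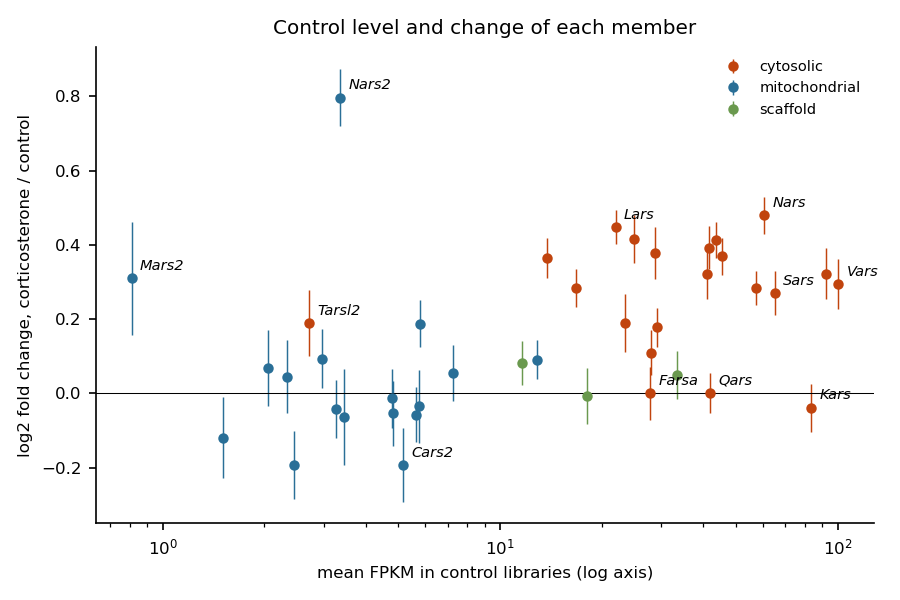
Mean FPKM in control libraries (horizontal log axis) and log2 fold change with corticosterone (vertical axis, bars show the SE) for the 41 genes, coloured by group. Cytosolic enzymes other than Tarsl2 lie between 13.7 and 100.5 FPKM, mitochondrial enzymes between 0.81 and 12.8 FPKM, and Nars2 is the highest point.

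Structural class, which divides the enzymes by the fold of their catalytic domain, was also set beside the changes. Of 9 cytosolic class I enzymes 7 rose (median log2 fold change 0.36), and of 11 of class II 4 rose (median 0.19). Eprs, which holds a domain of each class, rose as well. Of all genes tested 1.35% rose, and whether the classes differ was not tested. A list of 12 cytosolic synthetases known as ATF4 targets (Aars, Cars, Eprs, Gars, Iars, Lars, Mars1, Nars, Sars, Tars, Wars and Yars) held 11 that rose, and Sars did not pass. All 12 had treated libraries above all controls, beside 10.6% of all genes, with log2 fold changes between 0.27 and 0.48. Of the other 9 cytosolic genes, Rars rose and 8 did not pass, with a median of 0.18. The list was written with earlier results of these data known, so this count is a description and supports nothing.

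Nars2 (ENSMUSG00000018995), the mitochondrial asparaginyl-tRNA synthetase, had the largest log2 fold change of all 41 genes. Its levels were 26.9, 27.8 and 24.6 CPM in control replicates 1, 2 and 3 and 47.2, 42.9 and 47.7 CPM in the treated ones. The lowest treated library was 1.54 times the highest control, and the log2 fold change was 0.80 (SE 0.078; adjusted p = 0.00257 in edgeR), or 1.74-fold. Leaving out each library in turn gave values between 0.75 and 0.84. Per length it went from 3.35 ± 0.221 to 5.85 ± 0.424 FPKM (SD, n = 3). In controls this was below 9 of the other 16 mitochondrial enzymes and with corticosterone below 3 of them.

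Nars2 lies on chromosome 7 (96951505 to 97064758, plus strand, GRCm38). Its exons share 284 bases with C230038L03Rik, a gene on the opposite strand whose start lies 381 bases inside Nars2. C230038L03Rik, named after its values were seen, also rose, with 62, 78 and 45 counts in controls and 136, 280 and 212 counts in treated libraries. Its log2 fold change was 1.76 (adjusted p = 0.022 in edgeR). The sources used here do not say whether counting used strand, so reads of the shared bases cannot be assigned to either gene. Nars2 itself had 1607 to 1816 counts in controls and 2797 to 3118 with corticosterone. How far reads of the shared bases enter these counts was not tested. On the other side, Gab2 (log2 fold change 0.27) did not pass, nor did Tenm4 upstream (0.22). The promoter of Nars2 is printed because this was the mitochondrial enzyme that rose. It comes from RefSeq (GRCm38.p6) and is written 5′ to 3′ on the gene's strand.
Nars2, chr7:96951277-96951576, plus strand: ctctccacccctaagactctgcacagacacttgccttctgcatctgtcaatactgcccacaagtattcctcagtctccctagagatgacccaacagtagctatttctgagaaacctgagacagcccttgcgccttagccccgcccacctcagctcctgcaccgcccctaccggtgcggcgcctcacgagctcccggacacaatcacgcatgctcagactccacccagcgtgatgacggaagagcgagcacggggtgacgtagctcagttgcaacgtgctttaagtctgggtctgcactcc

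The other 16 mitochondrial enzymes gave small values in both directions. Their log2 fold changes ran from -0.19 (Cars2, cysteine) to 0.31 (Mars2, methionine), with 7 above 0 and 9 below. Mars2 was the least abundant, at 0.81 ± 0.108 FPKM in controls (SD, n = 3), and had the largest SE (0.15). It had 11.8, 10.01 and 9.24 CPM in controls and 12.6, 10.6 and 15.3 CPM with corticosterone, so that 1 treated library lay inside the control range. Cars2, with 41.2, 38.4 and 47.2 CPM in controls and 38.5, 39.3 and 33.2 CPM in treated libraries, had overlapping groups. Tars2, the threonyl enzyme, had 47.1, 44.5 and 45.1 CPM and then 52.8, 53.8 and 49.2 CPM, groups that did not overlap (log2 fold change 0.19, SE 0.063). Iars2, the isoleucyl enzyme and the most abundant of the set (12.8 ± 0.151 FPKM in controls, SD, n = 3), also had treated libraries above controls (0.091). Fars2, which charges phenylalanine as a single chain, was the 1 gene of the set with treated libraries all below controls, at 14.6, 14.5 and 12.9 against 16.1, 17.1 and 14.9 CPM. Its log2 fold change of -0.19 (SE 0.092) did not pass. Groups without overlap thus numbered 3 above and 1 below among 17 genes, Nars2 included, against 10.6% and 11.6% of all genes.

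A further 10 mitochondrial genes had overlapping groups. Log2 fold changes were 0.045 for Aars2 (alanine), -0.12 for Ears2 (glutamate), -0.054 for Hars2 (histidine) and -0.042 for Lars2 (leucine). They were 0.068 for Pars2 (proline), -0.035 for Rars2 (arginine), -0.064 for Sars2 (serine), -0.057 for Vars2 (valine), 0.094 for Wars2 (tryptophan) and 0.055 for Yars2 (tyrosine). The SE of these 10 genes ran from 0.074 (Vars2) to 0.13 (Sars2), against 0.045 (Rars) to 0.089 (Tarsl2) over all cytosolic genes.

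For 12 amino acids 1 cytosolic and 1 mitochondrial enzyme gene were compared, which allows the libraries to be read as a ratio within an amino acid. The cytosolic gene had the larger log2 fold change in 11 of the 12 pairs, with a median difference of 0.31. The log2 ratio of cytosolic to mitochondrial CPM lay above all controls in the 3 treated libraries for 9 pairs, overlapped for histidine and methionine, and lay below all controls for asparagine. For cysteine the ratio was 2.08, 2.28 and 2.05 in control replicates 1, 2 and 3 and 2.69, 2.74 and 2.81 in the treated ones, the widest gap in favour of the cytosolic enzyme. For leucine it was 1.76, 1.57 and 1.77 and then 2.16, 2.18 and 2.23. For asparagine it was 3.45, 3.40 and 3.64 in controls and 3.16, 3.24 and 3.14 with corticosterone, since Nars2 gained more than Nars. These ratios were not tested, and the share of all gene pairs whose ratios separate in this way was not computed. Among single genes, 10.6% had treated libraries above all controls and 11.6% below.

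**Figure D3:**
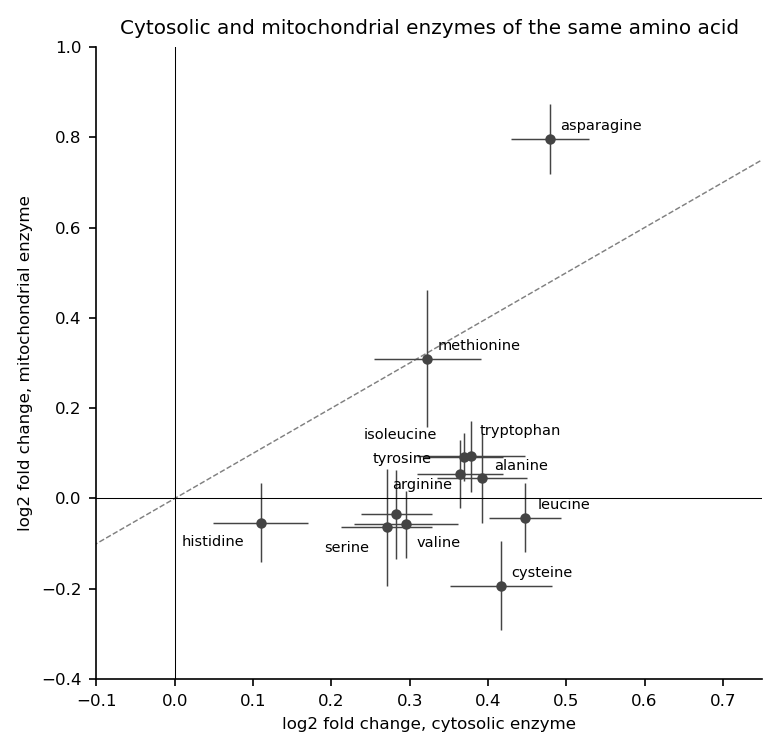
Log2 fold change of the cytosolic enzyme (horizontal axis) and of the mitochondrial enzyme (vertical axis) for the 12 amino acids compared, with SE bars. The dashed line marks equal change. Asparagine is the 1 pair above the line, methionine lies on it within its SE, and the other pairs lie below it.

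Per length, cytosolic enzymes were the more abundant of each pair in controls, from 1.90 times for tyrosine (Yars and Yars2) to 50.5 times for methionine. Summed over the 21 cytosolic genes, levels were 863, 897 and 908 FPKM in controls and 1081, 1100.4 and 1059.7 FPKM in treated libraries, so the groups did not overlap and the mean was 1.21 times higher. Summed over the 17 mitochondrial genes they were 74.2, 75.1 and 73.5 FPKM and then 78.0, 77.0 and 77.8 FPKM. Nars2 supplied 2.50 of the 3.38 FPKM by which the means of this sum differ.

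**Figure D4:**
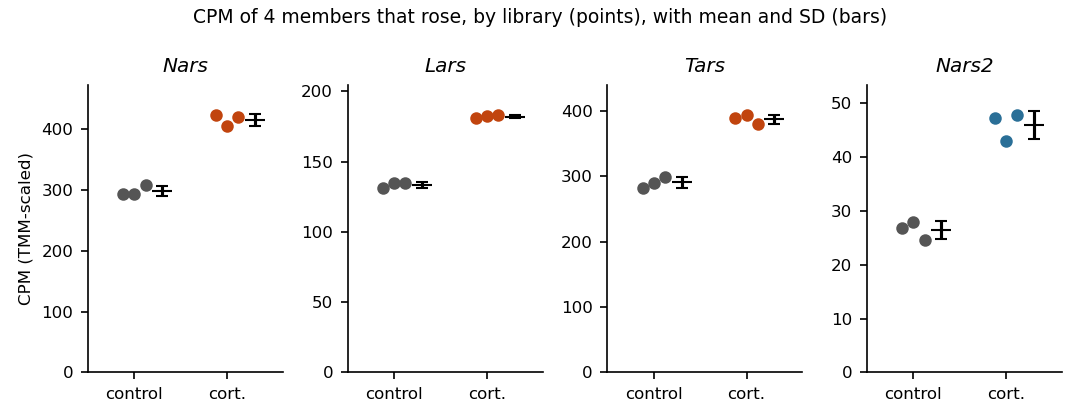
CPM in each library for Nars, Lars, Tars and Nars2, with control libraries in grey and corticosterone libraries in colour. Bars beside the points show the mean and SD (n = 3), and the vertical axes start at 0. In each panel the treated libraries lie above all controls.

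Promoter sequences of the genes were read for the C/EBP-ATF response element, the site bound by ATF4 with a C/EBP partner. RefSeq promoters (250 bases before to 50 after the start site, GRCm38.p6) were found for 31 of the 41 genes. The core TGATGCAA was searched on both strands. It was present in 4 of 14 cytosolic promoters (Aars, Iars, Tars and Yars), in 0 of 15 mitochondrial ones and in 0 of 4 of the scaffold genes, beside 0.895% of all 32851 promoters. With 1 free base (TGATGNAA, which includes the first motif) Gars was added, giving 5 of 14, beside 3.97% of all promoters. All 5 genes rose. The promoters of Eprs, Mars1 and Nars2, which rose too, and those of the 7 cytosolic genes that did not pass and have an entry, held neither in this window. Only 8 of the genes that rose have an entry. Cars, Lars, Nars, Rars and Wars, which also rose, have none and were not read. The full palindrome bound by the glucocorticoid receptor, searched on both strands with 3 free bases between its arms, was found in 0 of the 33 member promoters and 0.049% of all promoters. A match is a description of letters, not of binding.

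The matches of Gars, Iars, Tars and Yars are shown with 9 bases on each side, written so that the motif reads from left to right, with the motif in capitals. Distances are from the first base of the motif, as it lies on the gene's strand, to the start site.
Gars, 30 bases before the start, chr6:55037962-55037987, minus strand: cccggtgcaTGATGAAAtagcgcagc
Iars, 7 bases after the start, chr13:49682128-49682153, minus strand: gtctggaggTGATGCAAtactgacag
Tars, 15 bases before the start, chr15:11399657-11399682, plus strand: ctaaccagcTGATGCAAcgggactcc
Yars, 3 bases after the start, chr4:129189897-129189922, plus strand: gagctcagcTGATGCAAcccgacggg
The motif of Yars reads on the gene's own strand and the other 3 on the opposite strand. In Iars, Tars and Yars the free base is C, and in Gars it is A.

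Whole promoters are given for Tars and Iars, cytosolic genes that rose and whose promoters hold the core. They are written 5′ to 3′ on the gene's strand, with the motif (here as its reverse complement) in capitals.
Tars, chr15:11399609-11399908, minus strand: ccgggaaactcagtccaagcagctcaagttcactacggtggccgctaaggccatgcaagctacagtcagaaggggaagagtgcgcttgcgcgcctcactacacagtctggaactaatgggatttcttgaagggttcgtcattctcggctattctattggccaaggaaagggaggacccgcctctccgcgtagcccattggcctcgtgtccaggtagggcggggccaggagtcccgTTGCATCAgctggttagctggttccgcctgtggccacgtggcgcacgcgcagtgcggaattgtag
Iars, chr13:49681880-49682179, plus strand: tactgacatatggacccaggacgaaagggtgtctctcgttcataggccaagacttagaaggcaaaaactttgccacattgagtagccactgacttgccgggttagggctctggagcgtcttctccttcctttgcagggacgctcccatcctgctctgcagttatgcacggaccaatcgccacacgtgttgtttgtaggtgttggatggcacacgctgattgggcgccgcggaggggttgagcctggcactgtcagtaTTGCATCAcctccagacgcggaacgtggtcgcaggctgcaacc

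Position was also considered, since 12 of the 41 genes start within 1000 bases of another tested gene on the opposite strand, or overlap its start. Apart from Nars2 with C230038L03Rik, none of these neighbours passed. Yars starts 33 bases from S100pbp, whose log2 fold change was 0.13 beside 0.36 for Yars. Hars and Hars2 share a start region on chromosome 18, with changes of 0.11 and -0.054. Exons of 16 of the 41 genes overlap a gene on the opposite strand, among them Mars1 with Ddit3 (68 bases; log2 fold change of Ddit3 0.35, not passed) and Yars with C77080 (30 bases; 0.17, not passed), and their counts are uncertain to that extent. On the same strand, exons of Aars overlap Exosc6 (1326 bases), which held a mean of 38.3 counts per library. Those of Tarsl2 overlap Tm2d3 (120 bases). Exosc6 and Tm2d3 did not pass, and how far reads of the shared bases enter the counts was not tested. Iars has a near-identical copy, Gm4849 (96.0% identity over 1656 bases), which held a mean of 17.7 counts per library.

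Companion lists set the synthetases beside the rest of the path from transfer RNA gene to peptide. RNA polymerase III and its factors transcribe transfer RNA genes. Of 21 such genes 0 changed in edgeR, DESeq2 or limma (median log2 fold change 0.04, with 2 at an unadjusted p under 0.05). Without corticosterone replicate 2, 2 rose and 2 fell in edgeR, a fit in which 10.5% of all genes rose and 3670 of 17862 changed. The same shares of all genes belong beside the other list counts without this library. Of 26 genes of transfer RNA processing and export, Xpot, the nuclear exporter of transfer RNA, rose, and 25 did not pass (median 0.04). Xpot had 194, 189 and 192 CPM in controls and 266, 227 and 278 CPM with corticosterone (log2 fold change 0.42, SE 0.076), with corticosterone replicate 2 the lowest treated library. Its call was made with DESeq2 and limma as well and was lost without the filter on low counts. The list had 0 calls without any 1 of the libraries other than corticosterone replicate 2, without which 3 genes rose and 2 fell. Trnt1, which adds the CCA end that synthetases charge, had a change of 0.19 that did not pass, and the exporter Xpo5 one of 0.16. Proofreading, amidation and formylation enzymes, among them Gatb (-0.31) and Qrsl1 (0.20) of the mitochondrial amidotransferase that makes glutaminyl transfer RNA, had 0 of 9 that changed in edgeR or DESeq2 (2 at an unadjusted p under 0.05), and 1 that rose in edgeR without corticosterone replicate 2.

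Factors that use charged transfer RNA were read next. Of 10 cytosolic elongation and termination factors 0 changed in edgeR, where 4 had an unadjusted p under 0.05, and 2 rose in DESeq2. Without corticosterone replicate 2, 4 rose and 1 fell in edgeR, while 10.5% of all genes rose and 3670 of 17862 changed. Eef1a1, which delivers charged transfer RNA to the ribosome, was at a mean of 14741 CPM in controls with a log2 fold change of 0.0016, and the release factor Etf1 one of 0.20. Of 10 mitochondrial translation factors 0 changed in edgeR or DESeq2, with 1 at an unadjusted p under 0.05, and their median was 5.67e-04. Without corticosterone replicate 2, 2 of them fell in edgeR, in the same fit in which 3670 of 17862 genes changed.

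Regulators of the stress response that is known to act on synthetase genes were measured too. Atf4 itself had 303, 315 and 339.8 CPM in controls and 368, 426 and 374 CPM with corticosterone. Its log2 fold change was 0.29, which missed the threshold (SE 0.073; adjusted p = 0.088 in edgeR), while it passed in DESeq2 as did Ddit3. Of 19 genes for eIF2 kinases, eIF2B and related regulators, 2 rose: Ppp1r15a (GADD34, 0.67), which directs dephosphorylation of eIF2, and Cebpg (0.33), a C/EBP partner of ATF4. In DESeq2 4 of the 19 rose, and without the filter on low counts 1 did. Of 22 ATF4 targets of amino acid synthesis and uptake 15 rose and 7 did not pass, with a median of 0.47. The number was 20 in DESeq2 and 9 without the filter on low counts. Among them Asns, which makes the asparagine that Nars and Nars2 charge, had 197, 203 and 210.5 CPM in controls and 307, 323 and 302 CPM in treated libraries (0.61), and Aldh18a1 of proline synthesis rose by 0.49. This list, too, was written with earlier results known. Its count was 7, 4 and 9 without control replicates 1, 2 and 3 and 7, 21 and 12 without corticosterone replicates 1, 2 and 3. That of the regulators was 5 without corticosterone replicate 2, where 10.5% of all genes rose, and 1 without any other library. The shares of all genes that rose in the same fits are given above with the cytosolic enzymes.

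**Figure D5:**
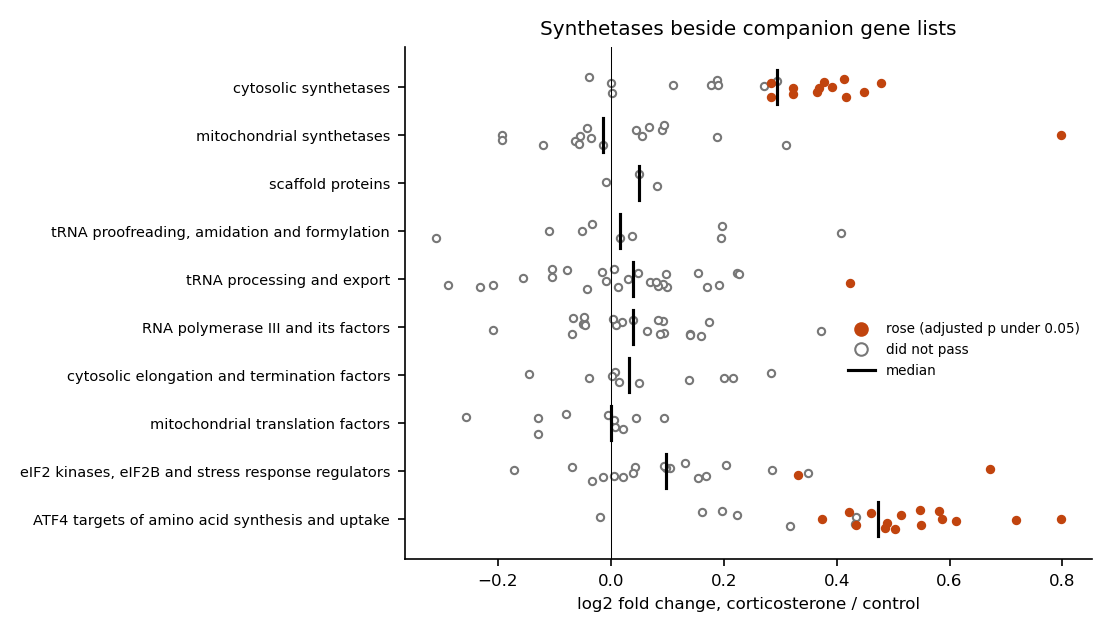
Log2 fold change of every tested gene in the 3 groups of members and in 7 companion lists, 1 point per gene, with filled points for genes that rose and a black bar at the median. The cytosolic synthetases have a median of 0.30 and the ATF4 targets of amino acid synthesis and uptake one of 0.47, while the other lists have medians between -0.014 and 0.098.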

How the data were processed

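RNA was sequenced in 6 libraries of 4T1 cells, 3 control and 3 corticosterone-treated, grouped by the treatment label. Counts per gene and library are whole numbers deposited by the authors in columns headed as counts, and the authors' FPKM values stand beside them. The headers do not say whether the counts were normalized. The sources used here do not give the counter, aligner or strandedness. A human build is named in the submitters' processing notes, while the gene identifiers are mouse; 32 of the 41 genes have identical coordinates in GENCODE M21 (GRCm38). All value columns were assigned to a sample.

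Counts were filtered (filterByExpr, minimum count 10, minimum total count 15), scaled by TMM and fitted with edgeR 4.0.16 (R 4.3.3), group being the only factor. Benjamini-Hochberg adjustment ran over 17283 genes. SE is the log2 fold change divided by the root of the F statistic. CPM is TMM-scaled. The pipeline was run on simulated counts whose set changes were larger than the rises of the cytosolic enzymes. The simulation held no library that stood apart. It therefore does not test how well rises of this size are called here. The members and the gene lists were chosen with earlier results of these data known. All members were named, and up to 4 genes of each companion list by lowest p; Eef1a1 and the genes next to members were chosen after their values were seen. Alternatives were DESeq2 1.42.0, its size factors in edgeR, 2 other filters, limma 3.58.1 on log2(FPKM + 1) and log2(FPKM + 0.1), the replicate block, each library left out, and thresholds of 0.01 and 0.1. Promoters are from RefSeq. Values of 1 mitochondrial gene, counted in its group, and 1 promoter sequence are not reported here.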

Additional observations from a re-analysis of the deposited data

How the results depend on the processing

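Cytosolic synthetases that rose numbered 12 in edgeR, 7 without the filter on low counts, and 4 and 14 at thresholds of 0.01 and 0.1. They numbered 15 with DESeq2, 13 with its size factors, 14 with a mean FPKM of at least 1 and 14 with limma at either pseudocount. Leaving out 1 library gave 2 (without control replicate 2) to 18 (without corticosterone replicate 2). Nars2 was the 1 mitochondrial enzyme that rose, and 0 synthetases or scaffold proteins fell, under each of these settings. Over all genes the number changed was 487 in edgeR, 1256 with DESeq2, 211 without the filter, 144 and 889 at the other thresholds, and 88 to 3670 with 1 library left out. The medians ran from 0.27 to 0.35 for cytosolic and from -0.0204 to 0.0333 for mitochondrial enzymes with 1 library left out. Of 13 member calls 3 held without each library in turn. The cause of these shifts was not tested.

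With the replicate number as a block (replicate block), 4 cytosolic synthetases rose and 237 genes changed. Same-numbered libraries did not deviate together (correlations -0.0024, 0.032 and -0.066), so the numbers were not taken to pair libraries, and 1 of 3 treated libraries correlated best with the control of its own number.

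The sign of 11 members that did not pass turned with 1 library left out. Their log2 fold changes then ranged from -0.0799 to 0.0457 for Farsa (-0.00304 with the replicate block), -0.0402 to 0.0355 for Qars, -0.0997 to 0.0132 for Kars, -0.0204 to 0.123 for Aars2 and -0.0895 to 0.0185 for Hars2. They ranged from -0.0797 to 0.0314 for Lars2, -0.0952 to 0.0356 for Rars2, -0.170 to 0.0537 for Sars2, -0.0890 to 0.00282 for Vars2, -0.0027 to 0.0968 for Yars2 and -0.0823 to 0.0530 for Aimp1.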
